A study of Mus musculus with 22 samples.

Results

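Single nuclei and whole cells of the hypothalamus were compared in the vehicle mice of Day 5, for the 3 glial types that line or surround the third ventricle and that both assays recovered: astrocytes, tanycytes and ependymal cells. Nuclei were typed by the authors' own annotation. The whole cells were taken from numbered clusters, with clusters 1 and 4 as astrocytes, clusters 0, 7 and 10 as tanycytes and cluster 6 as ependymal cells. This gave 15893 barcodes of 79855 in the series, from 8 of its 22 samples, and the 15712 genes that the tables of both assays list.

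All 8 mice were male ob/ob mice, which lack leptin, of 11 weeks. Each received an intracerebroventricular (icv) injection of PBS, the vehicle, was pair-fed (PF) to mice given FGF1, and was killed 5 days later. Nuclei came from 2 mice, numbers 28 and 38, and whole cells from 6 others, numbers 29, 27, 22, 20, 35 and 25, with 1 mouse per sample. The nuclei were freed from frozen tissue with a dounce in EZ buffer on ice, and the whole cells from fresh tissue by enzyme digestion at 37 °C and trituration with Pasteur pipettes. Libraries of both assays were made with the 10x Genomics 3′ v2 kit. Introns were counted for the nuclei and not for the whole cells. The assay also coincided with the cohort, the supplier of the mice, the chow (Purina 5008 for the nuclei, Altromin 1310 for the whole cells), the dissection, the gene filter and the limits on mitochondrial and ribosomal UMIs (unique molecular identifiers, 1 for each captured transcript), and neurons and predicted doublets had been removed from the whole cells only. The part of each in any difference given here cannot be told apart from that of the others.

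Astrocytes take up glutamate and potassium, supply neurons with metabolites and secrete apolipoproteins and matrix proteins. Tanycytes are elongated cells in the wall and floor of the third ventricle that carry nutrients and hormones between the cerebrospinal fluid and the arcuate nucleus and set local thyroid hormone levels. Ependymal cells cover the rest of the ventricular wall and move the fluid with motile cilia. A nucleus holds mostly newly made and unspliced RNA, a whole cell also holds the pool of mature messenger RNA in its cytoplasm, and mitochondrial transcripts are made and kept in the mitochondria.

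The nuclei were few and deep, and the whole cells many and shallow. Mice 28 and 38 gave 208 and 33 astrocyte nuclei, 9 and 14 tanycyte nuclei, and 3 and 8 ependymal nuclei. The 6 whole-cell mice gave 466 to 2164 astrocytes, 435 to 1688 tanycytes and 192 to 466 ependymal cells each. An astrocyte nucleus held a median of 2818.5 UMIs in mouse 28 and 3949 in mouse 38, and a whole astrocyte 958.5 to 1390 over its 6 mice. Summed over a mouse, the astrocyte nuclei held 687067 and 140557 UMIs of the shared genes and the whole astrocytes 569119 to 2204081, while the tanycyte nuclei held 32217 and 64793 and the ependymal nuclei 14980 and 36292. A gene with few transcripts could therefore be at 0 in the tanycyte or ependymal nuclei through depth alone, and intervals and limits given here cover counting error only. Any pair of the libraries shared 0 to 70 cell barcodes.

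The marker genes of each type were checked first. All 12 astrocyte markers were detected in the astrocyte nuclei of both mice, where they summed to 0.977% and 0.901% of UMIs against 2.02% to 2.28% in whole astrocytes. Tanycyte markers summed to 1.13% and 0.914% in tanycyte nuclei and to 0.669% to 1.38% in whole tanycytes, with Rax, Slc17a8 and Dio2 at 0 in mouse 28. Ependymal markers summed to 0.134% and 0.366% in the nuclei labelled ependymal and to 0.656% to 1.00% in whole ependymal cells. In these nuclei the markers of tanycytes (0.915% and 0.482%) and of astrocytes (0.801% and 0.592%) exceeded the ependymal ones in both mice, and Foxj1 and Ccdc153 were at 0 in mouse 28. In whole ependymal cells the ependymal markers exceeded both in all 6 mice. The nuclei thus went against their label by these sums. Of the tanycyte marker UMIs in the ependymal nuclei, 137 in mouse 28 and 175 in mouse 38, Nnat gave 246 over both. The ependymal markers had 20 and 133 UMIs there. Rax, Crym, Slc17a8 and Lhx2 were at 0 in these nuclei of both mice. Set against the other nuclei, the ependymal markers summed to 0.0590% and 0.0787% in tanycyte nuclei and to 0.0343% and 0.0306% in astrocyte nuclei, less than in either mouse's ependymal nuclei. The authors named the nuclei by marker genes, so this order is no check of the label. The ependymal nuclei are called so after the deposited annotation only.

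Markers of neurons took a larger share of UMIs in the glial nuclei than in the whole cells. The 10 neuron markers summed to 0.444% and 0.496% of UMIs in astrocyte nuclei and to 0.0332% to 0.0686% in whole astrocytes. They summed to 0.410% and 0.303% in tanycyte nuclei against 0.0296% to 0.0547%, and to 0.194% and 0.152% in ependymal nuclei against 0.0254% to 0.0478%. Summed, these markers stood in astrocyte nuclei at 32.4% and 36.3% of their level in the neuron nuclei of the same mice. In mouse 28 the 10 markers stood singly at 14.1% to 163%, with a median of 66.7% and 4 above neuron nuclei. In mouse 38 they stood at 24.6% to 113%, with a median of 48.7% and 1 above. Whether these UMIs came from neurons or from the glia was not tested. Only 4 of the 208 astrocyte nuclei of mouse 28, and none of the 33 of mouse 38, had no UMI of these markers. Among whole astrocytes, at a lower depth, the share with none went from 410 of 820 in mouse 29 to 1357 of 1911 in mouse 22.

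Genes were then compared with edgeR's quasi-likelihood test on UMI counts summed per mouse and type, with trimmed mean (TMM) scaling and a threshold of 0.05 on the p-value adjusted over all genes tested. In astrocytes 2601 of 11484 genes were higher in nuclei (22.6%) and 2162 lower (18.8%), and 3750 of these 4763 differed by more than 2-fold. Without nuclei mouse 28 the astrocyte calls numbered 2912. In tanycytes, where only mouse 38 had the 10 nuclei required and was assumed to vary like the whole-cell mice, 1091 of 11317 genes were higher (9.64%) and 1494 lower (13.2%). In ependymal cells neither mouse had 10 nuclei, so the minimum was set to 3 after the data had been seen, and 672 of 8523 genes were higher (7.88%) and 1462 lower (17.2%). Without nuclei mouse 38, which leaves 3 nuclei, the ependymal calls numbered 934. Levels are given in CPM, the UMIs of a gene per 1000000 UMIs of the scaled library total, and those in neuron nuclei, which were in no fit, in CPM without that scaling. With the library totals alone as the scale, 76.1% of the astrocyte calls were higher in nuclei in place of 54.6%, 74.3% of the tanycyte calls in place of 42.2%, and 69.2% of the ependymal calls in place of 31.5%, and the median of all genes moved by 0.39, 0.83 and 0.91 (log2). With DESeq2 the shares were 60.5%, 62.9% and 46.3%. The fitted median of all genes was −0.07 in astrocytes, −0.48 in tanycytes and −0.76 in ependymal cells. The fitted medians of the gene lists are to be read against these values, and those with genes at 0 set to a limit are not. Relative to that median no list changed direction with library totals as the scale. Since a gene could enter a fit through its level in whole cells alone, the counts for a list describe it and test nothing about it. Genes with near-identical copies elsewhere in the genome, among them Gapdh and several ribosomal protein genes, have uncertain values, and the part of the counting in their differences was not tested.

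Immediate early genes, which a cell switches on within minutes of a stimulus, took a smaller share of the UMIs in nuclei than in whole cells of each type. They made up 0.0362% and 0.0249% of UMIs in astrocyte nuclei, and 0.237%, 0.360% and 0.496% as the lowest, median and highest of the whole astrocytes. In tanycytes the nuclei held 0.0341% and 0.0139% and the whole cells 0.325% to 0.539%, and in ependymal cells 0.0267% and 0.0331% against 0.280% to 0.701%. The groups did not overlap in any of the 3 types. An exact permutation test over the 8 mice gave p = 0.0357 in each type (two-sided), the smallest value this design allows, which became 0.0675, 0.0506 and 0.0578 after adjustment over the 34 measures of a type, so that no such measure passed the threshold.

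The promoters of these genes were searched for 2 motifs through which such genes are known to be induced, in RefSeq sequence of GRCm38.p6 from 250 bases before to 50 after each start site and on both strands. The cyclic AMP response element, TGACGTCA, was in 4 of the 28 immediate early genes with a promoter in the table (14.29%) and in 2.031% of all 27025 genes. The AP-1 site TGACTCA, which Fos and Jun proteins bind, was in 1 of the 28 (3.571%) and in 5.946% of all genes. The 80 bases around the response element are shown for the 4 genes that had it, and whether any signal acted on them was not tested. They are written 5′ to 3′ on the gene's strand with the element in capitals.
Btg2, chr1:134079278-134079357, minus strand, element from 166 bases before the start: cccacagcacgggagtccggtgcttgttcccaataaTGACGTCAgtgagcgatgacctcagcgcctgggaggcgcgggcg
Dusp1, chr17:26508572-26508651, minus strand, element from 143 bases before the start: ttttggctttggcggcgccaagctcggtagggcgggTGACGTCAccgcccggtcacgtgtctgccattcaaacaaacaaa
Ppp1r15a, chr7:45526269-45526348, minus strand, element from 12 bases before the start: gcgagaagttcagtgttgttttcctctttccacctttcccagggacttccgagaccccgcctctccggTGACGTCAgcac
Maff, chr15:79347440-79347519, plus strand, element from 29 bases before the start: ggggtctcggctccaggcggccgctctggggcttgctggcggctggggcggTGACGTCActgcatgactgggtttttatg
A match is a description of these letters and not of a bound site. Of the 4, Btg2, Dusp1 and Ppp1r15a were lower in astrocyte nuclei, beside 22 of the 26 list genes tested and 18.8% of all genes. Maff was tested in ependymal cells only, at 0 and 22.0 CPM in nuclei against 17.5 to 38.0 CPM, which did not pass.

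In astrocytes 22 of the 26 immediate early genes tested, of 36 in the list, were lower in nuclei, beside 18.8% of all genes, 5 of the 26 were at 0 there, and none was higher, beside 22.6%. Fos, whose protein pairs with Jun proteins as the AP-1 transcription factor, had 2 UMIs in the 208 astrocyte nuclei of mouse 28 and none in mouse 38. That is 2.47 and 0 CPM, against 1008 to 2397 CPM with a median of 1585 in the whole astrocytes. The ratio of whole cells to nuclei in these counts was 879, with an exact 95% interval of 243 to 7261 (edgeR adjusted p = 4e-08). Egr1, a zinc finger transcription factor, likewise had 2 UMIs in all astrocyte nuclei and 203 to 434 CPM in whole astrocytes, a ratio of 167 (46.2 to 1380). Cyr61, a secreted matrix protein induced by growth factors, had no UMI in the astrocyte nuclei and 167 to 505 CPM in whole astrocytes, at least 111-fold more when 3 counts over both nuclei mice are taken as the limit. Jun, the partner of Fos, stood at 7.41 and 5.51 CPM in nuclei and at 137 to 302 CPM in whole astrocytes, lower by −4.92 ± 0.544 on the log2 scale (edgeR adjusted p = 8e-07). Gadd45g, a growth arrest gene, kept 110 and 55.1 CPM in the nuclei against 257 to 575 CPM, lower by −2.10 ± 0.41 (log2), and Rhob, a small GTPase, kept 43.2 and 22.1 CPM against 68.1 to 127 CPM. Neuron nuclei were low in Fos as well, at 1.38 and 4.12 CPM. With only the nuclei of at most 0.2% neuron markers kept, as described for the long genes, 8 of 25 immediate early genes were lower in astrocyte nuclei, beside 10.1% of all genes, with a median of −3.40 (log2).

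**Figure D1:**
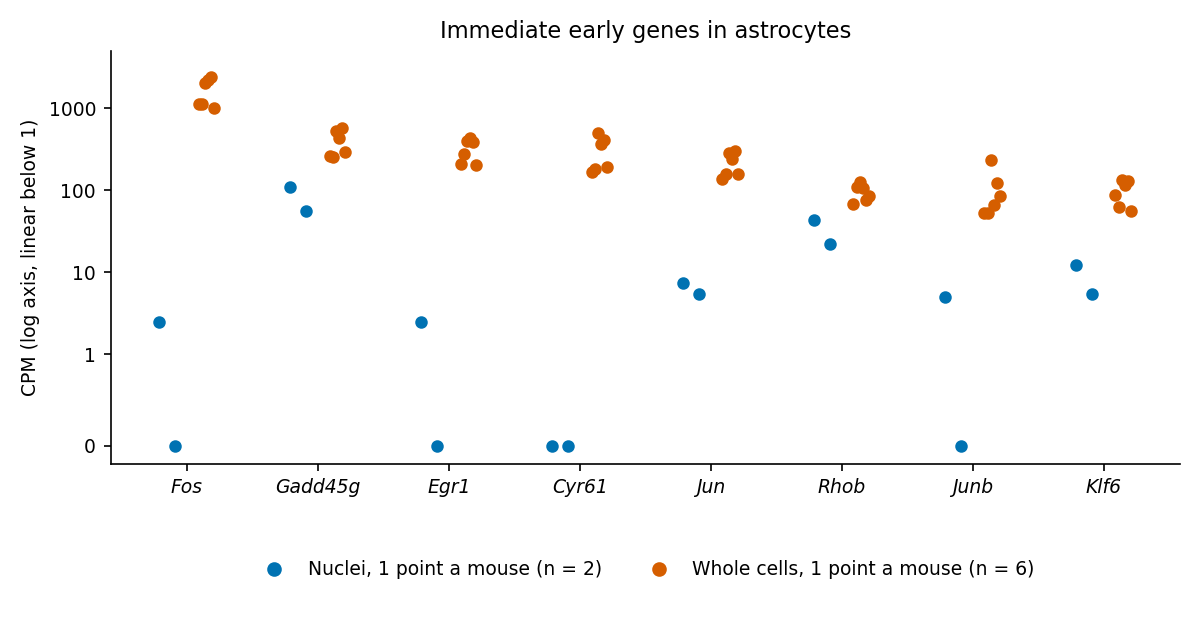
Level of the named immediate early genes in astrocytes, in CPM on a log axis, with 1 point per mouse (2 nuclei mice, 6 whole-cell mice) and an axis that is linear under 1 so that values of 0 can be shown. Every nuclei point of Fos, Egr1, Cyr61 and Jun lies below every whole-cell point, with Fos at 2.47 and 0 CPM against 1008 to 2397 CPM.

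In tanycytes 12 of 29 immediate early genes were lower in the nuclei of mouse 38 (beside 13.2% of all genes) and none was higher (beside 9.64%), with 24 of the 29 at 0. Fos had no UMI in these nuclei and 1285 to 2270 CPM in whole tanycytes, at least 64.6-fold more (edgeR adjusted p = 1.1e-11). Egr1 was at least 15.5-fold and Btg2, an antiproliferative gene, at least 12.1-fold higher in whole tanycytes. Dusp1, a phosphatase that switches off MAP kinases, was at 0 against 83.6 to 269 CPM and did not pass (edgeR adjusted p = 0.092). In ependymal cells 11 of 29 were lower, beside 17.2% of all genes, and none higher, beside 7.88%. Fos had no UMI in the 11 ependymal nuclei and 1097 to 2945 CPM in the whole cells, at least 52.0-fold more (edgeR adjusted p = 1e-06), and Jun was at least 13.2-fold higher in whole cells. The median fitted log2 difference of the list was −3.85, −8.17 and −7.39 in the 3 types, and −3.19, −1.60 and −1.75 with the genes at 0 set to their limit. No gene of the list was higher in nuclei in any type, also at an unadjusted p under 0.05 and with DESeq2.

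The whole cells varied among themselves in these genes. The whole astrocytes of mice 22, 20 and 35 held 0.494%, 0.465% and 0.496% immediate early UMIs, and those of mice 29, 27 and 25 held 0.249%, 0.255% and 0.237%. Both sets lay above the nuclei. By cluster, the 7940 astrocytes of cluster 1 held 0.240% to 0.573% over the mice and the 697 of cluster 4 held 0.167% to 0.237%.

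Heat shock genes encode chaperones that rise when proteins unfold. In astrocytes they made up 0.335% of UMIs in the nuclei of mouse 28, 0.179% in those of mouse 38, and 0.198% to 0.254% in whole cells, so that the nuclei lay on both sides of the whole cells (exact permutation p = 0.5). Of 12 tested 3 were lower, a share of 25% beside 18.8% of all genes, and Hspa8, the constitutive Hsp70, was at 852 and 414 CPM against 474 to 645 CPM and was not called. Without nuclei mouse 38 Hspa8 was higher by 0.54 (log2, edgeR adjusted p = 0.025). In tanycytes 7 of 14 were lower, beside 13.2% of all genes. Hsp90ab1, the constitutive Hsp90, was at 231 CPM in mouse 38 against 784 to 1194 CPM, lower by −2.07 ± 0.307 (log2). In ependymal cells 9 of 14 were lower, beside 17.2% of all genes. Hspa1a, the Hsp70 that heat induces, had no UMI in the ependymal nuclei and 327 to 958 CPM in whole cells, at least 16.3-fold more (edgeR adjusted p = 0.00024), while in tanycytes it was at 0 against 65.1 to 310 CPM and did not pass (edgeR adjusted p = 0.2). The astrocyte nuclei of mouse 28 also held more ribosomal UMIs than those of mouse 38, and with the nuclei over the limit of 5% left out 9 of the 12 heat shock genes were lower in astrocyte nuclei, beside 18.7% of all genes.

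Mitochondrially encoded genes, whose 13 members code for subunits of the respiratory chain and ATP synthase, had the lowest median of the 17 lists in astrocyte nuclei, at −4.00 beside −3.85 for immediate early genes (log2). Without nuclei mouse 28 immediate early genes were the lower, at −5.06 beside −4.29 relative to all genes. They held 1.17% and 1.16% of UMIs in astrocyte nuclei and 11.5% to 16.7% in whole astrocytes. In tanycytes the nuclei held 0.225% and 0.275% and the whole cells 9.14% to 12.8%, and in ependymal cells 0.598% and 0.316% against 7.87% to 11.5%. All 13 were lower in astrocyte nuclei, 12 of 13 in tanycyte nuclei and 13 of 13 in ependymal nuclei, beside 18.8%, 13.2% and 17.2% of all genes. mt-Co1, the catalytic subunit of cytochrome oxidase, was at 2261 and 1974 CPM in astrocyte nuclei and at 26802 to 37425 CPM in whole astrocytes, lower by −4.02 ± 0.273 (log2). In tanycytes mt-Co1 was at 347 CPM against 23832 to 33749 CPM, lower by −6.36 ± 0.338, and in ependymal cells at 719 and 791 CPM against 22998 to 34264 CPM, lower by −5.24 ± 0.315. The neuron nuclei of the same mice held 0.0305% and 0.0172% mitochondrial UMIs, less than the summed nuclei of any glial type in either mouse.

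Ribosomal protein genes were lower in the nuclei of every type. They held 5.16% and 3.44% of UMIs in astrocyte nuclei against 8.91% to 11.7% in whole astrocytes, 2.53% and 1.77% in tanycyte nuclei against 12.98% to 15.2%, and 3.29% and 1.85% in ependymal nuclei against 10.8% to 14.5%. Of the 78 genes 75 were lower in astrocytes, 76 in tanycytes and 77 in ependymal cells, with median log2 differences of −1.46, −3.77 and −3.18, beside 18.8%, 13.2% and 17.2% of all genes. Relative to the median of all genes the ependymal list stood at −2.42, and at −1.09 without nuclei mouse 38. Rpl41 was at 2026 and 1467 CPM in astrocyte nuclei against 3287 to 5181 CPM, lower by −1.28 ± 0.242, and at 868 CPM in tanycyte nuclei against 6781 to 9245 CPM, lower by −3.23 ± 0.271. Rps12 and Rps27 lay far from the others. Rps12 had 3 UMIs in all astrocyte nuclei and 1099 to 1594 CPM in whole astrocytes, a ratio of 463 (158 to 2244), and Rps27 was lower by −6.28 ± 0.374 (log2). The stated limit of 5% on nuclei would leave out 120 of the 208 astrocyte nuclei of mouse 28 and 11 of the 33 of mouse 38, all of them over it in ribosomal share. Within the limits, which act on these lists directly, the median log2 difference in astrocytes was −2.12 for ribosomal protein genes and −5.15 for mitochondrial ones.

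**Figure D2:**
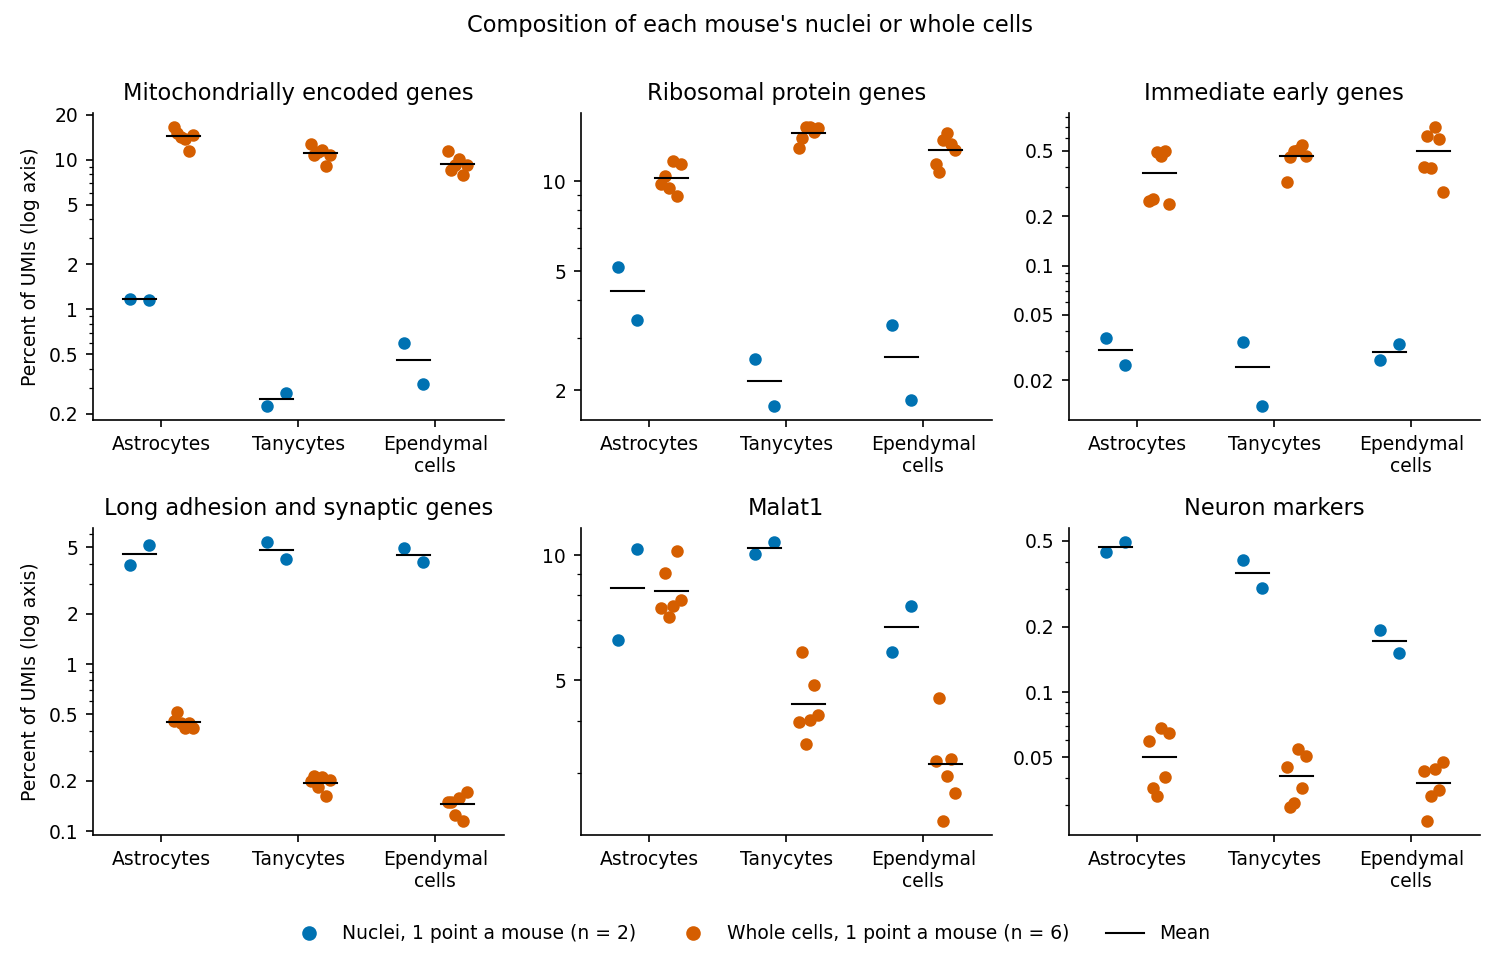
Percent of UMIs taken by 4 gene lists, by Malat1 and by the neuron markers in each mouse's nuclei (blue, 2 mice) and whole cells (orange, 6 mice) on log axes, with bars for group means. Mitochondrial, ribosomal and immediate early genes lie lower in nuclei and long adhesion and synaptic genes and neuron markers higher in all 3 types, while Malat1 overlaps in astrocytes, at 6.26% and 10.4% against 7.09% to 10.2%.

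Of the nuclear genes of oxidative phosphorylation 21 of 85 were lower in astrocytes and 3 higher, beside 18.8% and 22.6% of all genes, with a median of −0.34 (log2). In tanycytes 61 of 85 were lower and in ependymal cells 57 of 80, beside 13.2% and 17.2% of all genes. The astrocyte nuclei of the 2 mice disagreed, with 3.72% of UMIs in mouse 28 and 1.84% in mouse 38 against 3.02% to 3.57% in whole cells. Relative to the median of all genes this list stood at −0.96 without nuclei mouse 28 and at 0.047 without mouse 38 in astrocytes, and in ependymal cells at 0.22 without mouse 38. Cox8a, a cytochrome oxidase subunit, was at 1636 and 171 CPM in the astrocyte nuclei against 1497 to 2839 CPM, and did not pass (edgeR adjusted p = 0.24), while without nuclei mouse 28 it was lower by −3.61 (log2, edgeR adjusted p = 4.9e-07). Of the 15 glycolysis genes 5 were lower and 1 higher in astrocytes, 10 lower in tanycytes and 5 lower in ependymal cells, beside the same shares of all genes. In ependymal cells without nuclei mouse 38 the list stood at 1.48 relative to all genes. Gapdh had 5 UMIs in the astrocyte nuclei of mouse 28 and none in mouse 38, against 1260 to 1593 CPM in whole astrocytes, lower by −8.06 ± 0.424 (log2). Aldoc, the astrocyte aldolase, differed far less, at 1916 and 1119 CPM against 2447 to 3680 CPM (−0.88 ± 0.24, edgeR adjusted p = 0.0047), and by −0.56 without nuclei mouse 38. Of 16 translation factors 9 were lower in astrocytes, 14 in tanycytes and 15 in ependymal cells, beside 18.8%, 13.2% and 17.2% of all genes. Without nuclei mouse 38 the ependymal median stood at −0.080 relative to all genes in place of −1.37. Eef1a1, which brings transfer RNA to the ribosome, was lower by −0.80 ± 0.216, −2.90 ± 0.291 and −2.24 ± 0.322 (log2).

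Long genes of cell adhesion and synapse assembly had the highest median of the 17 lists in the nuclei of each type. The list of 40 held 3.92% and 5.20% of UMIs in astrocyte nuclei against 0.414% to 0.518% in whole astrocytes. In tanycytes the nuclei held 5.41% and 4.25% against 0.161% to 0.215%, and in ependymal cells 4.97% and 4.07% against 0.115% to 0.172%. Of the 40, 39 were higher in astrocyte nuclei and 38 in tanycyte nuclei, and 37 of 39 in ependymal nuclei, with median log2 differences of 3.87, 4.52 and 4.38, beside 22.6%, 9.64% and 7.88% of all genes. Lsamp, a membrane protein of the immunoglobulin family, was at 4309 and 4654 CPM in astrocyte nuclei and at 395 to 525 CPM in whole astrocytes, higher by 3.31 ± 0.18 (log2). It was higher by 3.98 ± 0.174 in tanycyte nuclei and by 5.32 ± 0.246 in ependymal nuclei. Gpc5, a glypican of astrocytes, was at 1958 and 1687 CPM against 87.5 to 144 CPM, higher by 3.92 ± 0.187. Cadm1, an adhesion molecule of synapses, was not called in any of the types, with 351 and 369 CPM in astrocyte nuclei against 284 to 364 CPM.

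Many of these genes are expressed by neurons too, and the neuron markers moved in the same direction. The summed level of the 40 in astrocyte nuclei was 44.3% of that in the neuron nuclei of mouse 28 and 63.8% in mouse 38, where the neuron markers stood at 32.4% and 36.3%. In tanycyte nuclei it was 61.1% and 52.2% and in ependymal nuclei 56.0% and 49.9%. Gpc5 stood at 431% and 267% of its neuron nuclei level in astrocyte nuclei, and Lsamp at 57.1% and 70.2%. When only the 52 and 13 astrocyte nuclei with at most 0.2% neuron markers were kept, a limit chosen after the data had been seen, 37 of the 40 were higher than in whole astrocytes, beside 10.6% of all genes, with a median of 3.15 (log2). The same limit was set on the whole cells. It lies above the summed share of these markers in whole astrocytes, 0.0332% to 0.0686%, and introns were counted for the nuclei only. How much of the level of the 40 genes came from neurons was not tested.

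**Figure D3:**
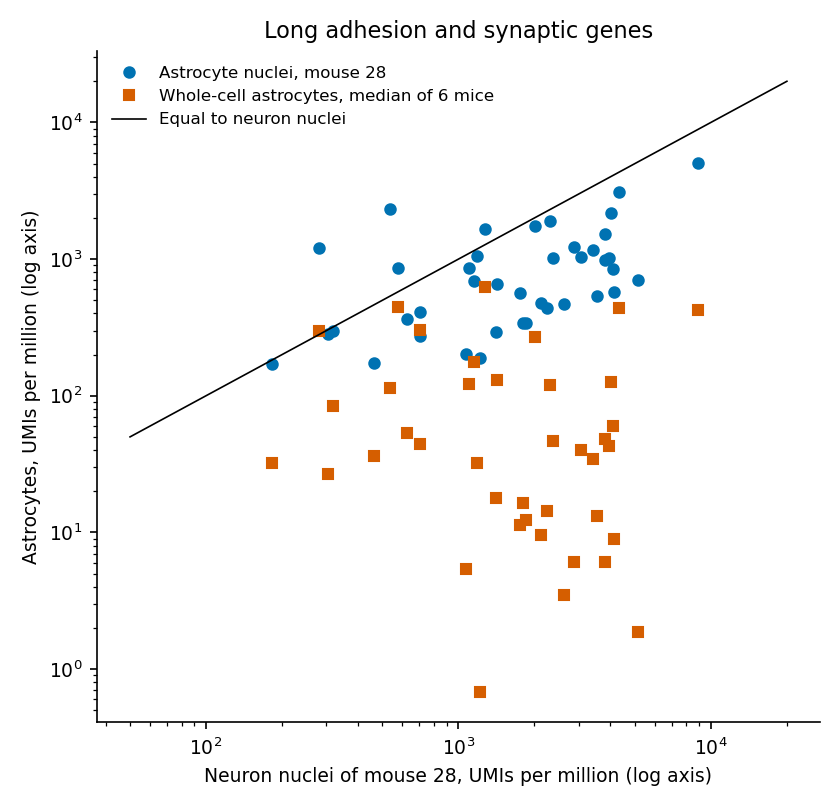
Level of the 40 long adhesion and synaptic genes in the astrocyte nuclei of mouse 28 (blue circles) and in whole astrocytes (orange squares, median of 6 mice) against their level in the neuron nuclei of mouse 28, in CPM without the TMM scaling on log axes, with a line where both are equal. Of the 40 circles 4 lie above the line, among them Gpc5 at 431% of its level in neuron nuclei, and the rest lie below it and above their squares.

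The same pattern ran through gene length across the genome. When the genes tested in astrocytes were ordered by the length of the gene body, introns included, and split into 5 bins of equal size, 8.59% of the bin of shortest genes (median 4.96 kb) were higher in nuclei and 30.3% lower. In the bin of longest genes (median 162 kb) 63.7% were higher and 4.12% lower. The longest bin held 36.7% higher and 1.77% lower calls in tanycytes and 32.0% and 3.14% in ependymal cells. Ordered by spliced length, the longest bin in astrocytes held 37.7% higher and 12.5% lower calls and the shortest 14.7% and 22.3%. A length was found for 97.2% to 97.3% of the genes in GENCODE M21. Introns were counted for the nuclei only, so the effect of the reference and that of the RNA cannot be told apart.

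**Figure D4:**
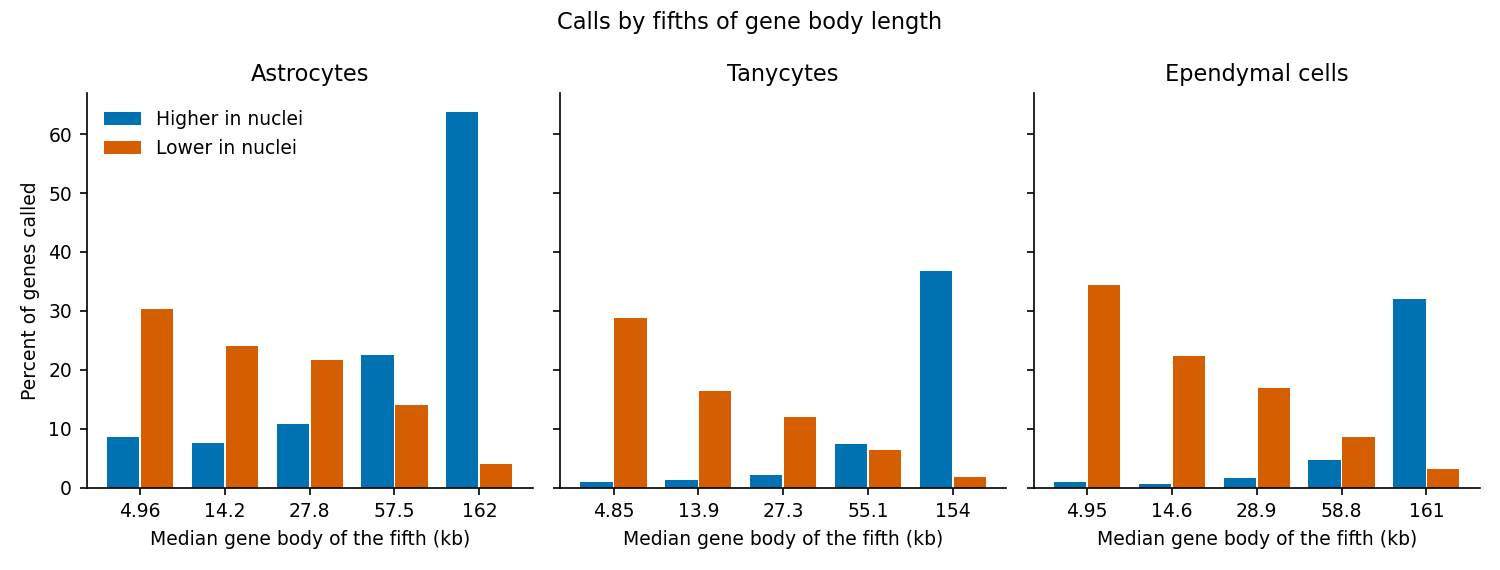
Percent of tested genes called higher (blue) and lower (orange) in nuclei, in 5 bins of gene body length whose medians in kb are given under the bars. In astrocytes the higher calls go from 8.59% to 63.7% and the lower calls from 30.3% to 4.12% between the shortest and the longest bin.

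Among nuclear-retained long noncoding RNAs Malat1, which sits in nuclear speckles, held 6.26% and 10.4% of UMIs in astrocyte nuclei and 7.09% to 10.2% in whole astrocytes and was not called (edgeR adjusted p = 0.16). Without nuclei mouse 38 it was lower in astrocyte nuclei by −0.75 (log2, edgeR adjusted p = 0.012), and against cluster 4 alone it was higher by 1.06 (edgeR adjusted p = 1.2e-06). It held 10.1% and 10.8% in tanycyte nuclei against 3.52% to 5.86%, and 5.86% and 7.54% in ependymal nuclei against 2.29% to 4.52%, and on the scaled levels it was not called in either (edgeR adjusted p = 0.098 and 0.49). Neat1, the scaffold of paraspeckles, was lower in astrocyte nuclei, at 76.5 and 171 CPM against 214 to 279 CPM (−1.19 ± 0.264, edgeR adjusted p = 0.00082). Without nuclei mouse 28 its value was −0.52 and it did not pass (edgeR adjusted p = 0.17). Meg3 and Snhg11, both abundant in neurons, were higher in astrocyte nuclei by 3.63 ± 0.22 and 4.22 ± 0.377 (log2). Meg3 was at 1647 and 3226 CPM against 134 to 238 CPM, and at 13009 and 14901 CPM in neuron nuclei. Among the nuclei with at most 0.2% neuron markers Snhg11 was no longer higher, at −0.50 in astrocytes (edgeR adjusted p = 0.67) and 0.16 in tanycytes. Snhg11 is itself among these markers, so the limit selects against it, and the source of its UMIs was not tested. Of the 8 measured, 4 were higher and 1 lower in astrocytes, beside 22.6% and 18.8% of all genes. In tanycytes 3 of 7 were higher, beside 9.64%, and in ependymal cells 1 of 6, beside 7.88%. With library totals as the scale 5 of the 6 were higher in ependymal nuclei, beside 13.9% of all genes. All 3 snoRNA host genes measured were lower in astrocyte nuclei, beside 18.8% of all genes, with Snhg12 at 60.5 and 38.6 CPM against 91.1 to 144 CPM (−1.12 ± 0.266). In tanycytes 2 of 3 were lower, beside 13.2% of all genes. None of the 3 passed in ependymal cells with edgeR (beside 17.2% of all genes lower) or DESeq2, where 2 and 1 had an unadjusted p under 0.05.

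Of the secreted proteins that glia are known for, 19 of 22 were lower in astrocyte nuclei and 1 higher, with a median of −1.04 (log2), in tanycytes 16 of 22 were lower and in ependymal cells 11 of 22, beside 18.8%, 13.2% and 17.2% lower of all genes. With library totals as the scale 13 were lower in astrocytes (beside 9.71% of all genes), 6 in tanycytes (beside 5.34%) and 2 in ependymal cells (beside 6.21%), where 4 were higher (beside 13.9%). Without nuclei mouse 38 the ependymal median stood at 0.88 relative to all genes. Cst3, the protease inhibitor cystatin C, was at 12481 and 6160 CPM in astrocyte nuclei against 16770 to 25538 CPM (−1.09 ± 0.259, from −1.67 without nuclei mouse 28 to −0.67 without mouse 38) and at 4512 CPM in tanycyte nuclei against 19924 to 29559 CPM (−2.40 ± 0.259), and it did not pass in ependymal cells. Apoe, the lipid carrier, was at 3782 and 926 CPM in astrocyte nuclei against 2563 to 8813 CPM and was not called in any type. All 3 metallothioneins, which bind zinc and copper, were lower in every type, beside 18.8%, 13.2% and 17.2% of all genes, with Mt1 lower by −1.74 ± 0.248 in astrocytes, −2.91 ± 0.265 in tanycytes and −3.13 ± 0.283 in ependymal cells (log2).

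Of the glial transcription factors 10 of 40 were higher in astrocyte nuclei (25%, beside 22.6% of all genes) and 18 lower (45%, beside 18.8%). Rora, an orphan nuclear receptor, was at 790 and 921 CPM in astrocyte nuclei against 149 to 192 CPM (2.42 ± 0.174), and Zbtb20, a zinc finger repressor, was at 1375 and 1263 CPM against 785 to 911 CPM (0.65 ± 0.185). Sox9, which specifies astrocytes, was at 69.1 and 82.7 CPM against 502 to 736 CPM (−3.11 ± 0.269), and Hes1, a target of Notch, at 13.6 and 11.0 CPM against 278 to 671 CPM (−4.93 ± 0.453). The gene body of Rora spans 734461 bases and that of Sox9 5537 bases. In tanycytes 10 of 41 were higher and 10 lower, 24.4% each beside 9.64% and 13.2% of all genes, with Rora higher by 3.57 ± 0.209 and Sox9 lower by −4.33 ± 0.437, and in ependymal cells 6 of 35 were higher (17.1%, beside 7.88%) and 7 lower (20%, beside 17.2%). Foxj1, the master regulator of motile cilia, was at 0 and 87.8 CPM in ependymal nuclei against 771 to 1081 CPM (−4.02 ± 0.508). Without nuclei mouse 28 its value was −3.46, and without mouse 38, which leaves nuclei with no UMI of it, the fitted value was −11.24.

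Of the receptors for FGF, the ligand of the wider study, Fgfr3 and Fgfr1 were lower and Fgfr2 higher in astrocyte nuclei. Fgfr3, the receptor that marks astrocytes, was at 146 and 160 CPM in astrocyte nuclei against 750 to 979 CPM (−2.53 ± 0.246, edgeR adjusted p = 6.5e-09), and Fgfr1 was at 33.3 and 49.6 CPM against 94.2 to 119 CPM (−1.47 ± 0.262). Fgfr2 was higher in nuclei, at 258 and 386 CPM against 30.3 to 40.8 CPM (3.20 ± 0.192), and neuron nuclei held it at 412 and 502 CPM. The annotated body of Fgfr2 overlaps other genes on the same strand, so its intronic UMIs may belong to them. In whole astrocytes Fgfr3 thus exceeded Fgfr2 in UMIs and in nuclei the reverse held. In the list of receptors and feedback genes 9 of 17 were lower in astrocyte nuclei, 1 was higher and 7 did not pass, beside 18.8% lower and 22.6% higher of all genes. The 9 hold Fgfr1 and Fgfr3 and, among the feedback genes, Spry2, Spred1 and the ETS factor Etv5 at −1.74 ± 0.574, −1.16 ± 0.24 and −1.77 ± 0.332 (log2). In tanycytes 2 of 18 were higher, a share of 11.1% beside 9.64% of all genes. None was lower with edgeR, where 1 was at an unadjusted p under 0.05, or with DESeq2, where none was. The 2 were Fgfr2 (2.99 ± 0.336) and Fgf10, a ligand that marks tanycytes, at 174 CPM against 53.8 to 86.6 CPM (1.40 ± 0.403, edgeR adjusted p = 0.011). With at least 3 nuclei, which brings in mouse 28, 2 of 17 were called in tanycytes and 1 of these was lower. Of all genes 13.4% were higher and 19.6% lower in that fit. In ependymal cells Fgfr2 was higher by 2.00 ± 0.498 and Spry2 was lower, at 0 in both mice against 46.1 to 79.5 CPM, and 10 of 12 did not pass. The 1 higher and 1 lower are 8.33% each, beside 7.88% and 17.2% of all genes. With DESeq2 none of the 12 was called lower in ependymal cells, where 1 was lower at an unadjusted p under 0.05.

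Of the genes of reactive astrocytes 5 of 17 were lower in astrocyte nuclei and 1 was higher, beside 18.8% and 22.6% of all genes. Gfap, the intermediate filament of reactive astrocytes, was at 158 and 199 CPM in nuclei and at 69.6 to 335 CPM in whole astrocytes and was not called (edgeR adjusted p = 0.85), while without whole-cell mouse 22 it was higher by 0.63 (edgeR adjusted p = 0.047). Against the 697 cells of cluster 4 alone Gfap was lower in nuclei, at −2.43 on the log2 scale (edgeR adjusted p = 0.026), and against the 7940 of cluster 1 it was higher by 1.87 (edgeR adjusted p = 3.2e-07). Serpina3n, a protease inhibitor, was lower by −2.01 ± 0.513. In tanycytes 3 of 23 were lower, beside 13.2% of all genes, among them the filament proteins vimentin (Vim, −2.81 ± 0.466) and nestin (Nes, at 0 against 51.7 to 84.8 CPM), and in ependymal cells 4 of 15 were lower, beside 17.2% of all genes, Vim by −3.23 ± 0.451.

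Of the genes by which tanycytes handle thyroid hormone and nutrients 7 of 25 were lower in tanycyte nuclei (28%, beside 13.2% of all genes) and 3 higher (12%, beside 9.64%), and 15 did not pass. Their fitted median was −1.45 (log2), beside −0.48 for all genes. With the genes at 0 set to their limit it was −0.71. Set likewise, the 10534 genes with a known length and no overlap on the same strand had a median of 0.16. Crym, which binds thyroid hormone in the cytosol, was at 86.8 CPM in mouse 38 against 346 to 529 CPM (−2.38 ± 0.395), and Gpr50, an orphan receptor of tanycytes, at 96.4 CPM against 424 to 686 CPM (−2.39 ± 0.396). In astrocytes 11 of 24 of these genes were lower (45.8%, beside 18.8%) and 4 higher (16.7%, beside 22.6%), with the gap junction protein Gja1 at 556 and 452 CPM against 1496 to 1803 CPM (−1.68 ± 0.223), and in ependymal cells 5 of 18 were lower (27.8%, beside 17.2%) and 2 higher (11.1%, beside 7.88%).

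Of the motile cilium genes 17 of 57 were lower in ependymal nuclei (29.8%, beside 17.2% of all genes) and 7 higher (12.3%, beside 7.88%), with a median of −0.85 (log2) beside −0.76 for all genes. With library totals as the scale 11 were lower and 16 higher, beside 6.21% and 13.9% of all genes. Tppp3, a tubulin-binding protein, was at 137 and 87.8 CPM against 1364 to 2408 CPM (−4.08 ± 0.423), and Tmem212 at 34.2 and 307 CPM against 979 to 2396 CPM (−2.98 ± 0.552). Without nuclei mouse 38 the value of Tmem212 was −5.49 and without mouse 28 it was −2.48. In tanycytes 13 of 55 were higher (23.6%, beside 9.64%) and 7 lower (12.7%, beside 13.2%), with Rfx3, a transcription factor of ciliogenesis, at 598 CPM in mouse 38 against 122 to 160 CPM (2.09 ± 0.249) and Dynlrb2, a dynein light chain, lower by −2.66 ± 0.455. In astrocytes 13 of 35 were higher (37.1%, beside 22.6%) and 2 lower (5.71%, beside 18.8%). Spag6l, a protein of the axoneme's central pair, was at 582 and 314 CPM in astrocyte nuclei against 0.527 to 3.89 CPM, higher by 7.80 ± 0.275, and neuron nuclei held it at 142 and 162 CPM.

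**Figure D5:**
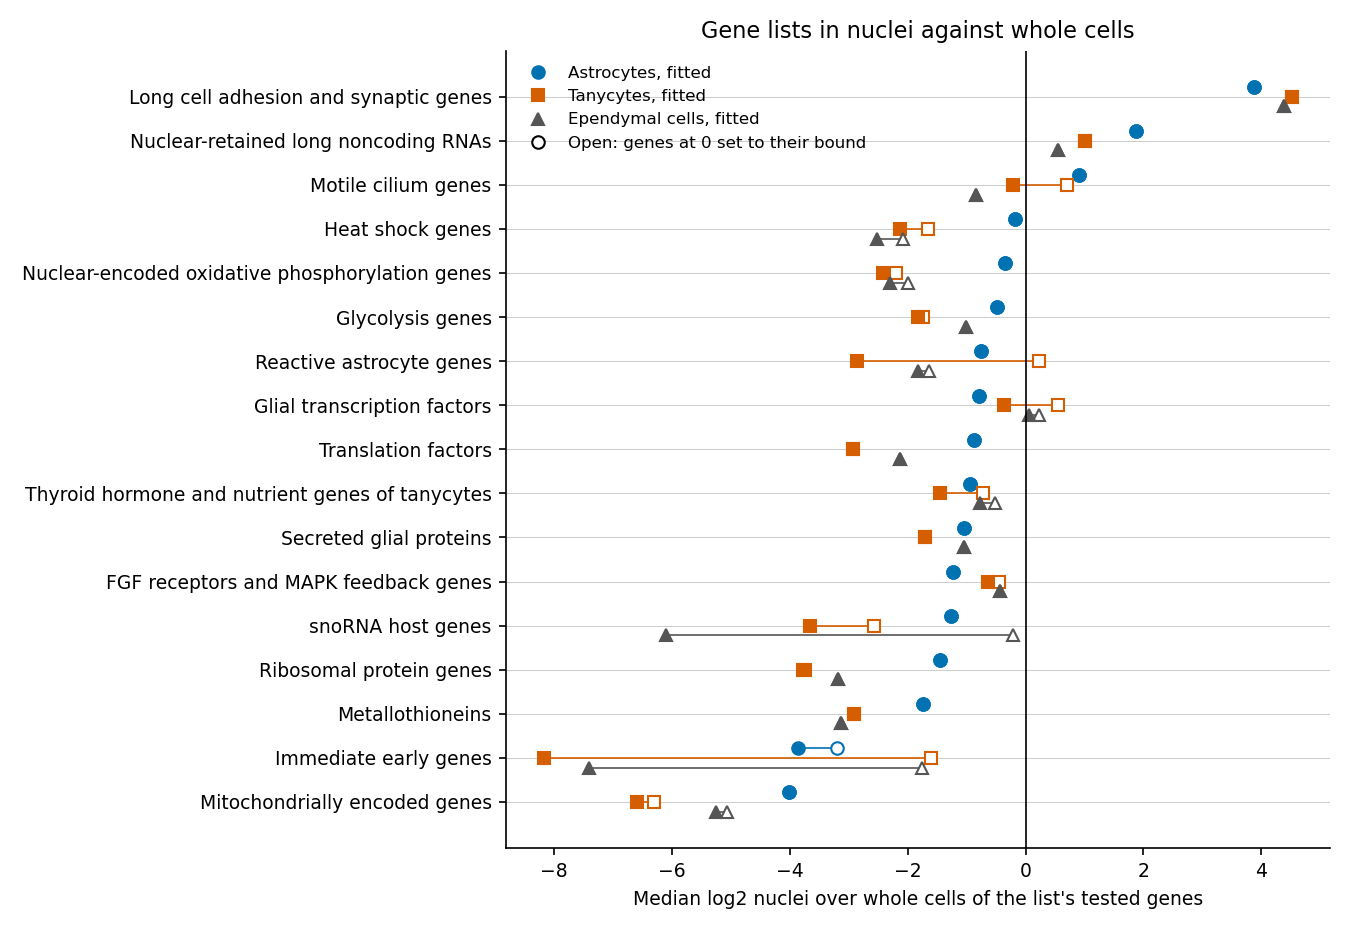
Median log2 difference between nuclei and whole cells for the tested genes of each of the 17 lists in the 3 types, with filled symbols for fitted values and open symbols for medians in which genes at 0 in nuclei are set to the limit that 3 counts allow. As fitted, long adhesion and synaptic genes lie at 3.87, 4.52 and 4.38, mitochondrially encoded genes at −4.00, −6.59 and −5.24, and the medians of all genes at −0.07, −0.48 and −0.76.

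Some genes were seen in 1 assay almost alone. In astrocytes these were, on the side of the nuclei, Rab39, Col14a1, Ctla4, Asxl3, Cdh18 and Cntnap5b. Rab39, a GTPase of vesicle traffic, had 258 and 58 UMIs in the astrocyte nuclei (319 and 320 CPM) and none in 8637 whole astrocytes, at least 963-fold more in nuclei when 3 counts over the 6 mice are taken as the limit. Col14a1, a collagen, was at least 357-fold higher. Ctla4, known as a checkpoint receptor of T cells, was at 253 and 176 CPM in astrocyte nuclei with 1 UMI in whole astrocytes, a ratio of 2168 (385 to 85980). Asxl3, a chromatin regulator, was at 605 and 425 CPM against 0 to 1.94 CPM. All 4 were also present in neuron nuclei, Rab39 at 102 and 156 CPM, Ctla4 at 63.2 and 88.5 CPM, and Asxl3 at 584 and 518 CPM. Cdh18, a cadherin, and Cntnap5b, a contactin-associated protein, stood at 156 and 474 CPM and at 80.2 and 176 CPM in astrocyte nuclei, below their levels in neuron nuclei. On the side of the whole cells, Phpt1, a phosphohistidine phosphatase that overlaps Mamdc4 on the same strand, had no UMI in any astrocyte nucleus and 100 to 229 CPM in whole astrocytes, at least 40.3-fold more.

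In tanycytes the genes highest in the nuclei of mouse 38 were Tmigd1, Slc8a1, Cdh18, Rab39, Galntl6 and Ctnna3, with 17 to 28 UMIs each there and 0 to 2 in all whole tanycytes. Tmigd1, an adhesion protein of epithelia, had 19 UMIs against none, at least 436-fold more. Those lowest, beside Fos, Egr1 and Btg2, were Rps12, mt-Nd4l and Rpl7a, each at 0 in the nuclei, with at least 53.2-fold, 37.4-fold and 20.4-fold more in whole tanycytes. mt-Nd4l overlaps mt-Nd4 on the same strand, so that their UMIs may not be separable. In ependymal cells the highest were Tmigd1, Pde1c, Asxl3, Sgcz, Mylip and Prr16. Pde1c, a phosphodiesterase, was at 821 and 1911 CPM in nuclei against 0 to 9.03 CPM (log2 8.30), with 2122 and 2296 CPM in neuron nuclei. The lowest, beside Fos and Hspa1a, were Rps12, mt-Nd3, Gapdh and Rpl27, at least 40.2-fold, 24.7-fold, 22.996-fold and 16.2-fold higher in whole cells and at 0 in the nuclei. Across the lists and the named genes, the neuron markers in the nuclei, the intron reference and the assay itself moved together, and their separate parts were not tested.

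The differences between nuclei and whole cells were themselves compared between types, in 1 fit with a term for each mouse. Between tanycytes and astrocytes, 45 of 12561 genes had a larger log2 nuclei over cells in tanycytes (0.358%) and 274 a smaller one (2.18%). Ribosomal protein genes made up 59 of those with a smaller value, of 78 tested, mitochondrially encoded genes 8 of 13 and heat shock genes 3 of 14. None of the 29 immediate early genes passed the test of this difference with edgeR or DESeq2, and none had an unadjusted p under 0.05 with either. The median difference of these immediate early genes was −1.43 (log2), beside −0.37 for all genes. Of the 29 tested in tanycytes 24 were at 0 in the nuclei, so a difference between the types could be missed. Between ependymal cells and astrocytes, 136 of 11473 genes were larger (1.19%) and 907 smaller (7.91%). Among the smaller were 65 of 78 ribosomal protein genes, 40 of 83 oxidative phosphorylation genes, 23 of 58 motile cilium genes and 8 of 14 heat shock genes. This fit required 3 nuclei and that of tanycytes and astrocytes 10, so their counts are not on the same footing. Between ependymal cells and tanycytes 23 genes were larger (0.2%) and 44 smaller (0.384%), with 1 of 83 oxidative phosphorylation genes among the smaller. None of the 14 heat shock genes passed there with edgeR, the tool run on this contrast, where 4 had an unadjusted p under 0.05. In the fit of tanycytes and astrocytes mouse 28 had astrocyte nuclei only. Its own mouse term took these up, so they added nothing to the estimated difference. On the side of the nuclei that contrast thus rests on mouse 38 alone, with 14 tanycyte and 33 astrocyte nuclei. Both nuclei mice had both types in the contrast of ependymal cells and astrocytes. Astrocyte nuclei over the ribosomal limit were part of each contrast with astrocytes. The limit caps the ribosomal and mitochondrial share itself, so it acts on these lists directly. It leaves out 120 of the 208 astrocyte nuclei of mouse 28 and 11 of the 33 of mouse 38. Of the 14 tanycyte nuclei of mouse 38 it leaves out 0. Within the stated limits the tanycyte and astrocyte contrast called 99 genes in place of 319, with 2 of 78 ribosomal protein genes, 0 of 14 heat shock genes and 0 of 13 mitochondrially encoded genes called by edgeR. Of the 14, 2 had an unadjusted p under 0.05 there. None of the 13 had one, their median was 0.13 in place of −2.21 (log2), and DESeq2 was not run within the limits.

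Among single genes Rcn1, a calcium-binding protein of the endoplasmic reticulum, was at 90.8 to 147 CPM in whole tanycytes and had no UMI in the tanycyte nuclei of mouse 38, while in astrocytes the nuclei (7.53 and 22.1 CPM) overlapped the whole cells (10.9 to 25.3 CPM). Sfrp5, a secreted inhibitor of Wnt, went the other way. Sfrp5 was lower in astrocyte nuclei, at 37.6 and 22.1 CPM against 137 to 174 CPM, and in tanycytes it was at 45.0 CPM in nuclei, from 5 UMIs, against 14.1 to 30.3 CPM, a difference between the types of 3.63 (log2).

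The differences between the types were then set side by side in both assays. Over 3162 genes, the log2 ratio of tanycytes to astrocytes in nuclei and in whole cells correlated with Pearson's r = 0.444 and Spearman's rho = 0.271. For ependymal cells over astrocytes the values were 0.391 and 0.309 over 3589 genes, and for ependymal cells over tanycytes 0.289 and 0.242 over 3764 genes. The ratio had the same sign in both assays for 54.4%, 57.2% and 57.3% of these genes. These are correlations across genes, which are not independent replicates, and the points share mice and the low depth of the nuclei. The types were clustered on these genes and named by marker genes, so the direction of the markers is a description and no check of the types. Averaged over the nuclei of both mice, 12 of 12 astrocyte markers and 12 of 13 tanycyte markers had their own direction between tanycytes and astrocytes, and 11 and 10 had it in both mice. Between ependymal cells and astrocytes 9 of 9 ependymal markers had it on average and 7 in both mice, with Ccdc153 and Foxj1 lower in the ependymal nuclei of mouse 28. Between ependymal cells and tanycytes 9 of 9 ependymal markers had it on average and 6 in both mice, and 10 of 13 tanycyte markers on average and 7 in both mice, where in whole cells 12 of the 13 had it.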

How the data were processed

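Counts per gene and barcode were deposited by the authors as whole-number UMI counts, made with Cell Ranger 1.2 on GRCm38, with introns included for nuclei only, and filtered with Seurat, with Scrublet doublets removed from whole cells only. Their metadata gave each barcode's sample and its cell type or cluster, and the percent of UMIs from mitochondrial and ribosomal genes, which the authors computed per whole cell. Members, lists and named genes were chosen with earlier results of these data known. Named genes were the 6 highest and 6 lowest by fitted log2 among called genes with a mean of at least 100 CPM in 1 assay, the 5 each way for the difference between types, and up to 8 per list by mean CPM, of which some are not reported here. No column of per-sample values was left unused.

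UMIs of the 15712 shared genes were summed per mouse and type, with at least 10 barcodes required, and tested with edgeR 4.0.16 (quasi-likelihood, TMM, filterByExpr, Benjamini-Hochberg). Ependymal cells used a minimum of 3 nuclei, added after seeing the data. TMM factors were 1.19 to 2.06 for nuclei and 0.80 to 0.95 for whole cells. Shares of UMIs were compared with exact permutation tests in Python 3.11.15. The SE beside a log2 value is from the edgeR fit. DESeq2 1.42.0, other scalings, filters, subsets and left-out mice were alternatives. Within an assay no pair of these mice shared a batch number. No further doublet caller was run. On simulated counts the astrocyte test, run on 11484 genes, recovered 27.12% of genes changed by a log2 of 1, 68.33% at 2 and 83.95% at 3. The tanycyte test (11317 genes) recovered 16.95% at 2 and 43.90% at 3, and the ependymal test (8523 genes) 20.69% and 48.19%, and neither recovered any at 1.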

Additional observations from a re-analysis of the deposited data

Results flagged for a closer look

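Of 182 sets of 6 whole-cell mice tested for single genes, 25 had 1 mouse far from the other 5, and of 24 sets for library measures 4 did, where chance sets apart about 1 in 20. Of the 25, 7 had a single UMI in 1 mouse and none in the other 5, so that this count alone set them apart, namely Ctla4 and Cntnap5b in astrocytes, Cdh18, Slc8a1, Rab39 and Galntl6 in tanycytes and Sgcz in ependymal cells. Mouse 22 stood apart in H2-D1, an antigen-presenting class I protein, in all 3 types, at 561 CPM in astrocytes, 769.75 CPM in tanycytes and 2805 CPM in ependymal cells, and in Gbp2, an interferon-induced GTPase, at 616 CPM in ependymal cells. In its astrocytes Gfap (335 CPM), Serpina3n (93.4 CPM), Apoe (8813 CPM), Clu (3005 CPM) and Ctla4 (0.527 CPM) also lay apart, as did Apoe (7917 CPM) and Cdh18 (1.82 CPM) in its tanycytes. Mouse 35 had the deepest cells, with a median of 769 genes in astrocytes and of 993 genes and 1901.5 UMIs in tanycytes, and it lay apart in astrocyte Gapdh (1593 CPM) and Aldoc (3680 CPM) and in ependymal Rsph1 (1173 CPM).

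Mouse 27 lay apart in astrocyte Rora (192 CPM), tanycyte Hes1 (2162 CPM) and ependymal Foxj1 (1081 CPM) and Cst3 (2994 CPM). Mouse 29 lay apart in the immediate early share of tanycytes (0.325% of UMIs) and in astrocyte Slc2a1 (189 CPM). Mouse 25 did so in astrocyte Id2 (647 CPM) and tanycyte Slc8a1 (0.657 CPM), and mouse 20 in astrocyte Cntnap5b (0.481 CPM), tanycyte Rab39 and Galntl6 (0.526 CPM each) and ependymal Sgcz (1.81 CPM).

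The difference between nuclei and whole cells itself differed between types in edgeR's test of the interaction, for 319 genes between tanycytes and astrocytes, 1043 between ependymal cells and astrocytes and 67 between ependymal cells and tanycytes. The named genes with the smallest values in tanycytes relative to astrocytes were Rcn1 (−10.45), Eif3h (−9.57), Rpl7a (−9.32), Mageh1 (−9.29) and Deb1 (−9.25), as fitted log2 differences. All 5 had no UMI in the tanycyte nuclei of mouse 38, so these sizes depend on the fit and give no bound. Those with the largest were Sfrp5 (3.63), Snx29 (3.61), Tmem164 (2.67), Tet2 (2.65) and Cit (2.22).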

How the results depend on the processing

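No paired analysis was possible because the nuclei mice and the whole-cell mice share no number. Calls in astrocytes went from 4763 to 1563 with counts thinned to the smallest total, 2219 with nuclei of at most 0.2% neuron markers and 1489 against cluster 4 alone, in tanycytes from 2585 to 1250 when thinned, and in ependymal cells from 2134 to 153 when thinned. The tanycyte and astrocyte contrast went from 319 to 197 with DESeq2, 108 thinned, 99 within the stated limits, 572 without the mouse term and 798 with at least 3 nuclei. The cause was not tested, except that thinning leaves fewer genes to test. Leaving out 1 mouse at a time gave 2912 to 4676 calls in astrocytes, lowest without nuclei mouse 28, and 934 to 2146 in ependymal cells, lowest without nuclei mouse 38. In tanycytes and in the contrast mouse 38, the only mouse with tanycyte nuclei in those fits, could not be left out. How far those counts rest on it is therefore not shown. With at least 3 nuclei, which brings in mouse 28, 1340 of 10019 genes were higher in tanycyte nuclei (13.4%) and 1963 lower (19.6%).

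Relative to all genes, list medians of nuclei against whole cells (log2) changed sign in astrocytes when thinned, for nuclear noncoding RNAs (−0.0029), transcription factors (0.049) and heat shock genes (0.15), and against cluster 4 for oxidative phosphorylation (0.040), glycolysis (0.0041) and heat shock genes (0.18). In tanycytes the FGF list changed sign with no filter (0.17), thinned (2.24), with at most 0.2% neuron markers (0.38) and against clusters 7 (1.17) and 10 (0.31). In ependymal cells oxidative phosphorylation (0.14) and secreted proteins (1.34) did when thinned, motile cilium genes with no filter (0.10), within limits (0.21) and with at most 0.2% neuron markers (0.45), and the thyroid hormone list with DESeq2 (0.0059) and no filter (0.14). Within limits mouse 28 kept 2 ependymal nuclei and with at most 0.2% neuron markers 1, under the minimum of 3. Those ependymal fits therefore hold nuclei of mouse 38 only. Leaving out mouse 28 alone gave 0.225 for motile cilium genes. Without 1 mouse, oxidative phosphorylation ran from −0.96 to 0.047 in astrocytes. In ependymal cells it ran from −2.09 to 0.22, glycolysis from −0.57 to 1.48, secreted proteins from −0.49 to 0.88, motile cilium genes from −0.094 to 0.225 and the thyroid hormone list from −0.17 to 0.72. The ependymal median of mitochondrially encoded genes kept its sign and ran from −5.51 to −3.44.

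Values of named genes that changed sign numbered 46. In astrocytes these were, with library totals, Malat1 (0.032), Hsp90aa1 (0.29), Hsp90ab1 (0.28) and Cox6b1 (0.26), against cluster 4 Malat1 (1.06), Ldhb (0.15), Gfap (−2.43), Hsp90ab1 (0.31) and Cox6b1 (0.25), thinned Hsp90ab1 (0.22), with no filter Aldoa (−0.0349), within limits Aldoa (−0.43) and Hspa8 (−0.27), and with at most 0.2% neuron markers Aldoa (−0.12), Hspa8 (−0.0680) and Snhg11 (−0.50). In tanycytes they were Fgfr1 (0.64) and Neat1 (0.31) with library totals, Neat1 thinned (0.33), Cadm1 (−0.013) and Fgfr1 (0.065) with at most 0.2% neuron markers, Fgfr1 against clusters 0 (0.10) and 7 (0.36), Fgfr3 against clusters 7 (0.78) and 10 (0.45), Neat1 against cluster 7 (0.44) and Tppp3 against cluster 10 (0.74). In ependymal cells they were Aldoc (0.73), Cst3 (0.89) and Fgfr1 (0.48) with library totals, Aldoc (2.36), Cst3 (2.26) and Cpe (0.092) thinned, Malat1 with no filter (−0.000923), and Fgfr1 within limits (0.035) and with at most 0.2% neuron markers (0.16). The ependymal fits within limits and with at most 0.2% neuron markers hold no nuclei of mouse 28. Leaving out mouse 28 alone put Fgfr1 at 0.027. Without 1 mouse, astrocyte Hspa8 ran from −0.48 to 0.54, Hsp90aa1 from −0.99 to 0.30, Hsp90ab1 from −0.81 to 0.26, Aldoa from −0.57 to 0.42, Cox6b1 from −0.74 to 0.22 and Fgf1 from −0.11 to 0.75, and ependymal Malat1 from −0.39 to 0.47, Cst3 from −0.94 to 0.16, Fgfr1 from −2.64 to 0.027 and Meg3 from −1.46 to 0.91. The named genes gave 192 results, with a gene counted once for each type or contrast in which it is named. Of their other values, 3042 kept direction and side of the threshold, 142 lost and 63 gained a call.

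As percentage points of UMIs, nuclei minus cells, without 1 mouse, long genes ran from 3.47 to 4.75 in astrocytes, 4.05 to 5.22 in tanycytes and 3.92 to 4.82 in ependymal cells, neuron markers from 0.393 to 0.445, 0.261 to 0.369 and 0.113 to 0.155, and Malat1 from −1.94 to 2.17 in astrocytes and 2.72 to 4.39 in ependymal cells.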
